A study of Mus musculus with 12 samples.

Results

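The mRNAs of 10 secreted cytokines outside the interleukin-1 family were followed in mouse macrophages: Tnf, Tnfsf10, Il6, Il12a, Il12b, Il27, Ebi3, Il15, Il10 and Csf3. They were taken by symbol from the 47937 genes counted in 12 RNA sequencing libraries, and all 10 were found. The cells were bone marrow-derived macrophages of C57BL/6 mice, grown for 7 days with CSF-1 at 20 ng/ml, in 4 groups of 3 libraries. M0 cells were resting. IFNγ + LPS cells had received IFNγ at 50 ng/ml and LPS at 20 ng/ml for 18 h. The other two groups, M0 with DGAT1i and the stimulated cells with DGAT1i, were given the DGAT1 inhibitor T863 at 50 μM and labelled 18 h, whereas the M0 label gives no time. No genetic change is named for any group. For 2 of the 3 resting libraries with inhibitor, the compound number in the description differs from the T863 of the source name, and both were read as T863. No label says whether the libraries of a group came from separate mice, so p-values measure the spread between libraries, which may be technical.

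TNF and IL-6 are early inflammatory cytokines, and TRAIL, the product of Tnfsf10, is a TNF family ligand that can trigger death receptors. IL-12 and IL-27 are heterodimers that act on T and NK cells. IL-12 pairs the alpha chain from Il12a with the beta chain from Il12b, and IL-27 pairs the chain from Il27 with that from Ebi3. IL-15 sustains NK and memory T cells and is presented on its own receptor chain, IL-10 restrains macrophage activation, and G-CSF, from Csf3, drives the formation of neutrophils. In macrophages many of these genes are switched on by LPS through NF-κB and by IFNγ through IRF factors, and several of the mRNAs are unstable. DGAT1 makes the last step of triglyceride synthesis, and the comparison with its inhibitor asks whether the cytokine response to IFNγ + LPS differs when that step is blocked.

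Libraries held 4996014 to 6621671 reads on genes, and 1 CPM (reads per 1000000 reads, scaled by edgeR's TMM factors) was worth 4.29 to 7.59 reads. All 8 macrophage markers examined, among them Adgre1 and Csf1r, were present in every group. With DGAT1i in IFNγ + LPS 4 of the 8 fell, where 16.3% of all genes tested were called lower and 13.5% higher. On the log2 scale Itgam fell by 0.60, C1qa by 0.54, Adgre1 by 0.36 and Fcgr1 by 0.27. Cd68 rose by 0.48, and Csf1r, Mertk and Lyz2 were not called. The 8 markers summed to 8453 to 9057 CPM without and 7962 to 8898 CPM with DGAT1i. Summed T cell, NK cell, B cell, mast cell and stromal markers stayed at or below 4.82 CPM in every library. Neutrophil and myeloid precursor markers summed to 31.8 to 38.8 CPM in M0, 15.3 to 26.0 CPM in IFNγ + LPS and 63.3 to 82.5 CPM in IFNγ + LPS with DGAT1i. Within that list Ngp, Ltf, S100a8 and S100a9 rose and were the 4 of 10 tested, whereas the neutrophil markers Ly6g and Retnlg were at 0 in every library. Dendritic cell markers summed to 0.266 to 1.11 CPM in M0, 14.8 to 20.3 CPM in IFNγ + LPS and 6.58 to 9.09 CPM in IFNγ + LPS with DGAT1i. Of the 3 of 8 tested there, Xcr1 and Clec9a fell and Ccr7 was not called, while Siglech and Cd209a were at 0 in both stimulated groups. The 3 had at most 1 read over either resting group and passed the filter through stimulated libraries only. Xcr1 had 86 reads over IFNγ + LPS and 12 with DGAT1i, so its fall is a description. The part of these shifts in the cytokine results was not tested, and in bulk RNA fewer cells of a type and less RNA per cell cannot be told apart.

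IFNγ + LPS raised the mRNAs of 7 of the 10 cytokines above M0, left Il10 without a called change, and gave almost no Il12a or Csf3 reads. In M0, Tnf, Ebi3 and Il15 were the best expressed, and Il6, Il12a, Il12b and Csf3 had 0 reads in all 3 libraries. After IFNγ + LPS, Tnf stood far above the others. Per kb of annotated exon it reached 382 ± 34.9 CPM (SD, n = 3), against 75.03 ± 4.31 for Il27, 61.7 ± 2.76 for Il15, 42.6 ± 8.67 for Il12b and 42.4 ± 2.33 for Ebi3. Tnfsf10 followed at 18.5 ± 0.393 CPM per kb, Il6 at 6.15 ± 0.451 and Il10 at 2.42 ± 0.689. Each of these neighbours in the order was separated in every library, except Il12b and Ebi3, which overlapped.

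**Figure D1:**
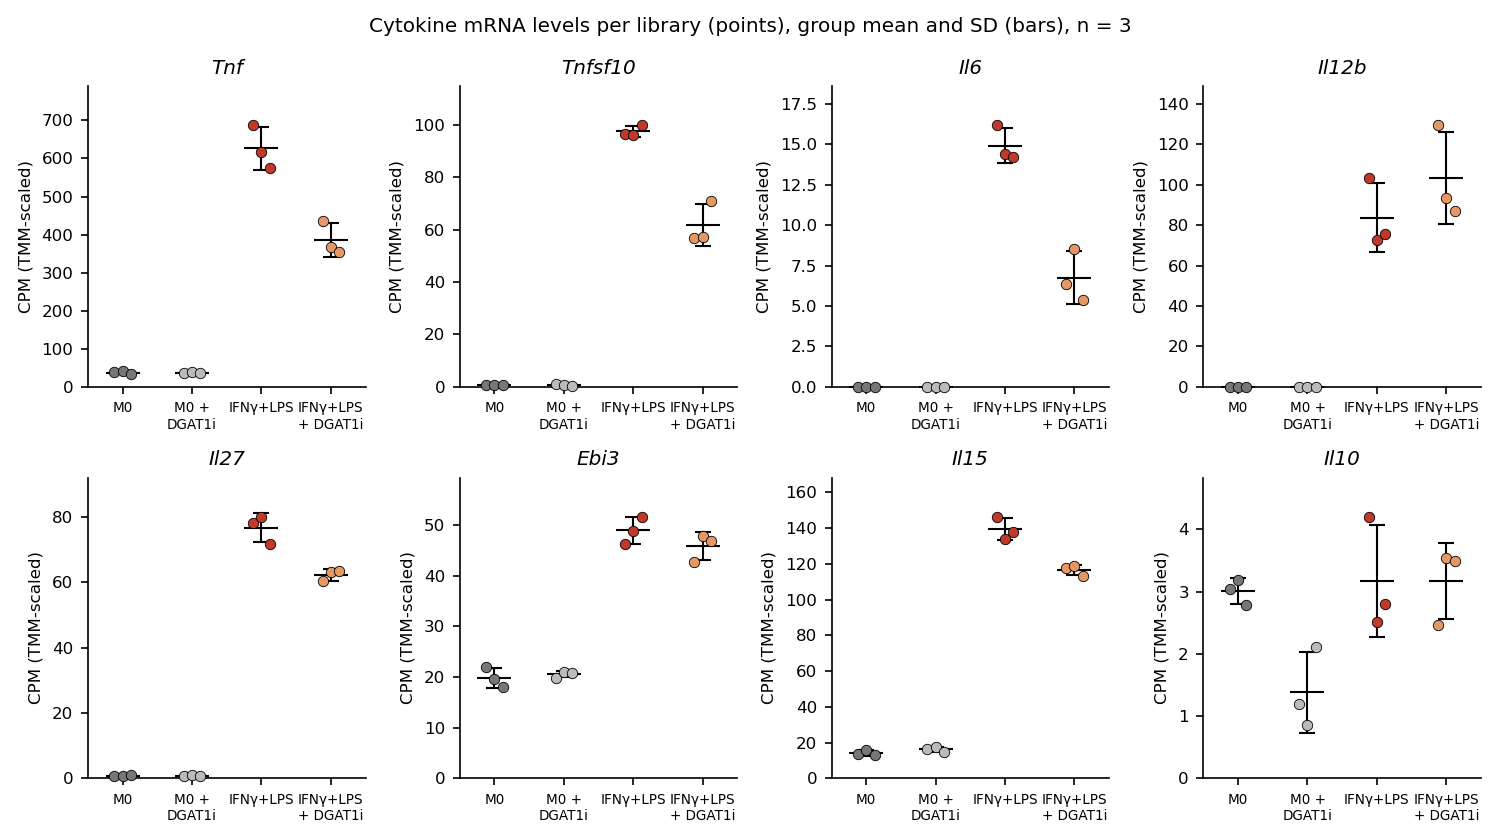
TMM-scaled CPM (vertical axis, linear, from 0) of the 8 tested cytokine mRNAs in each of the 12 libraries, by group; points are libraries and bars the group mean and SD (n = 3). Tnf lay between 574 and 687 CPM in IFNγ + LPS and between 354 and 436 CPM with DGAT1i, whereas the Il12b groups overlapped.

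Tnf, on chromosome 17 (chr17:35199381-35202007, minus strand, GRCm38), was at 38.3, 40.8 and 32.8 CPM in M0 and at 687, 618 and 574 CPM in IFNγ + LPS. The lowest stimulated library was far above the highest resting one, and the log2 fold change was 4.07 (SE 0.09, adjusted p = 2.85e-19, from the quasi-likelihood test of edgeR after Benjamini-Hochberg adjustment, as for all adjusted p-values here). Tnf was one of 7 cytokines called higher of the 8 tested, where 37.1% of all 11760 genes tested were called higher, 36.2% lower and 73.3% in either direction. Il6, Il12b, Il27 and Tnfsf10 passed the filter on low counts through the stimulated libraries only, so their difference from M0 is a description and their share is no evidence about the cytokines. With library size alone as scaling, the median over all genes of the log2 fold change moved from 0.01 to -0.46 in this comparison, and all 7 were still called higher.

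Tnfsf10 (chr3:27317028-27342427, plus strand) was at 0.580, 0.797 and 0.556 CPM in M0 and 96.7, 96.0 and 99.9 CPM in IFNγ + LPS. Its log2 fold change was 7.19 (SE 0.17). Il6 (chr5:30013114-30019981, plus strand) went from 0 reads in each M0 library to 77, 80 and 76 reads, or 16.2, 14.4 and 14.2 CPM. Against a floor of 3 reads over the M0 group it was at least 107-fold higher. The 0 reads allow up to 0.139 CPM of Il6 in M0, and it was, once stimulated, still the lowest of the 7 induced cytokines.

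The mRNAs of the IL-12 chains were at very different levels. Il12b (chr11:44400063-44414033, plus strand) had 0 reads in M0 and 103, 72.4 and 75.6 CPM in IFNγ + LPS, at least 598-fold higher against the floor. Il12a (chr3:68690644-68698547, plus strand) had 2, 0 and 1 reads in the same stimulated libraries, 0 reads in both resting groups, and 1, 0 and 2 reads in IFNγ + LPS with DGAT1i. The alpha chain mRNA was therefore at or under the floor in all 4 groups and no fold change is given, while that of the beta chain was among the better expressed cytokines. Il23a, which encodes the other partner of the Il12b chain, had 0 reads in all 12 libraries.

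The IL-27 chains were both induced, from different starting points. Il27 (chr7:126589010-126594941, minus strand) was at 0.725, 0.665 and 1.11 CPM in M0 and at 78.2, 80.0 and 71.6 CPM in IFNγ + LPS, a log2 fold change of 6.49 (SE 0.16). Ebi3 (chr17:55952640-55957022, plus strand) was already at 21.9, 19.5 and 18.1 CPM in M0 and reached 46.2, 48.9 and 51.6 CPM, a log2 fold change of 1.30 (SE 0.10, adjusted p = 6.36e-18). The read ratio of Il27 to Ebi3 within a library was 0.0429 ± 0.0162 (SD, n = 3) in M0 and 1.57 ± 0.162 in IFNγ + LPS. Il27 shares 103 exon bases with Apobr and Ebi3 shares 270 with Gm16712, each on the opposite strand. Whether counting used the strand is not stated, so reads in those bases cannot be told apart. Apobr was at 157 ± 8.04 CPM in M0 and 115 ± 4.13 CPM in IFNγ + LPS (SD, n = 3), and Gm16712 was at 0.276 ± 0.130 and 0.567 ± 0.149 CPM.

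Il15 (chr8:82331632-82403222, minus strand) was at 13.5, 15.8 and 13.1 CPM in M0 and 146, 134 and 138 CPM in IFNγ + LPS, with a log2 fold change of 3.30 (SE 0.08, adjusted p = 2.04e-39). Il15ra, whose product carries IL-15 to the cell surface, went from 2.14 ± 0.663 to 209 ± 13.8 CPM (SD, n = 3). The read ratio of Il15ra to Il15 was 0.153 ± 0.0536 in M0 and 1.503 ± 0.155 in IFNγ + LPS. Per kb of exon, Il15ra was below Il15 in both groups, at 0.482 ± 0.149 against 6.24 ± 0.656 CPM in M0 and 47.03 ± 3.11 against 61.7 ± 2.76 CPM in IFNγ + LPS.

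Il10 (chr1:131019845-131024974, plus strand) rested on few reads. It had 21, 24 and 20 reads in M0 (3.04, 3.19 and 2.78 CPM) and 20, 14 and 15 in IFNγ + LPS (4.20, 2.52 and 2.81 CPM). The groups overlapped, and the log2 fold change of 0.06 had a 95% interval of -0.54 to 0.65 (adjusted p = 0.869, edgeR with Benjamini-Hochberg adjustment). Csf3 (chr11:98701263-98703629, plus strand) had 0 reads in M0 and 1, 2 and 2 reads in IFNγ + LPS, at least 2.3-fold higher against the floor of 3 reads over the group, and it did not pass the filter.

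The bases before the start of the members induced from 0 reads and of those expressed at rest are shown because the group holds both kinds. Promoter sequences from RefSeq (GRCm38.p6) were used for 6 of the 10 genes, and the 250 bases before the start are given 5′ to 3′ for 4 of them, Tnf on the minus strand (chr17:35202008-35202257), Il12b (chr11:44399813-44400062), Il6 (chr5:30012864-30013113) and Ebi3 (chr17:55952373-55952622) on the plus strand. Capitals mark matches on either strand to an NF-κB motif (GGGA, any 4 bases, CC) or an AP-1 motif (TGANTCA).
Tnf: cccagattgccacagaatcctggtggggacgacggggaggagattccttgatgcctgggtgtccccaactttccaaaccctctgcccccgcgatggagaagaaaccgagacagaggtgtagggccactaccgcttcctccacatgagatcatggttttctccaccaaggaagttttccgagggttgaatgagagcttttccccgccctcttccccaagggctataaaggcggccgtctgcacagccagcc
Il12b: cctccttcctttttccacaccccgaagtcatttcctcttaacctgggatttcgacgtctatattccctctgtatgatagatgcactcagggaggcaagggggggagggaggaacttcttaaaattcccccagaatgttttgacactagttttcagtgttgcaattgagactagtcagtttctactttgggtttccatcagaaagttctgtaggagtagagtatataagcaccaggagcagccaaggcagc
Il6: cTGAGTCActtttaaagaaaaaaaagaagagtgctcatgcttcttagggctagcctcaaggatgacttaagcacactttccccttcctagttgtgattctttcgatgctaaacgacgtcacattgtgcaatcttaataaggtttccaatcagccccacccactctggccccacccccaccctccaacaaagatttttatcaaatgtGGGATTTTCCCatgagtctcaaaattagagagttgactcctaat
Ebi3: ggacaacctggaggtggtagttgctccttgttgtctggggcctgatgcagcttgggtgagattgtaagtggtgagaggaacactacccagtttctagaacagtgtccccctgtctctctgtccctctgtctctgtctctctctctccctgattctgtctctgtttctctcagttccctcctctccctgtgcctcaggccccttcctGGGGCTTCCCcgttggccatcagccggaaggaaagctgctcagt
Il6 held a pair of overlapping NF-κB matches at 44 to 34 bases before its start and an AP-1 match at 249 to 243 bases. Ebi3 held one NF-κB match at 44 to 35 bases, and the second start of Il12a a pair of overlapping matches at 113 to 103 bases. Tnf, Il12b and Tnfsf10 held no match to either motif in this window. Sites spelled otherwise or lying outside the window would be missed, so no match does not mean no site. An NF-κB match was found in 17.6% of the 32851 RefSeq windows of this length and an AP-1 match in 6.75%. Matches to an ISRE (GAAA, any 2 bases, GAAA, 2.98% of windows), a GAS element (TTCNNNGAA, 7.02%) and a CRE (TGACGTCA, 1.55%) were found in none of the 6 genes.

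With DGAT1i, 5 cytokine mRNAs fell in IFNγ + LPS: Il6, Tnf, Tnfsf10, Il27 and Il15. Il12b, Ebi3 and Il10 were not called. Those 5 of 8 tested compare with 16.3% of all genes tested called lower and 29.8% called in either direction, and the median log2 fold change of the 8 was -0.28 against -0.01 over all genes. In the 5, every library with DGAT1i was below every library without it. The 5 were picked by their calls, and the share of all genes separated in this way was not counted.

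Tnf was at 436, 367 and 354 CPM in IFNγ + LPS with DGAT1i, against 687, 618 and 574 CPM without it. It fell by 0.70 on the log2 scale (SE 0.08, adjusted p = 5.75e-07), and even the highest library with DGAT1i was below the lowest without. Tnfsf10, the other TNF family member, was at 56.9, 57.1 and 70.9 CPM with DGAT1i and fell by 0.67 (SE 0.08, adjusted p = 2.84e-09). Both remained well above M0, with log2 fold changes over M0 with DGAT1i of 3.37 (SE 0.09) for Tnf and 6.56 (SE 0.19) for Tnfsf10.

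Il6 had the largest fitted decrease of the 8. It was at 6.37, 8.54 and 5.36 CPM (31, 41 and 23 reads) with DGAT1i, against 16.2, 14.4 and 14.2 CPM without, and fell by 1.13 on the log2 scale (SE 0.20, 95% interval -1.52 to -0.74, adjusted p = 1.05e-05). Csf3, with 5 reads in IFNγ + LPS and 2 when DGAT1i was added, gave a ratio of 2.23 with a counting interval of 0.365 to 23.4, so that no difference was detectable at this depth.

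Il12b was not called, and its mean was higher with DGAT1i. It was at 129, 93.5 and 86.9 CPM with DGAT1i and 103, 72.4 and 75.6 CPM without, and the groups overlapped. The log2 fold change was 0.31 (SE 0.24, 95% interval -0.15 to 0.78, adjusted p = 0.419). With the replicate number as a block in the edgeR fit, Il12b was called higher (adjusted p = 0.0012). No label says that equal numbers mark a pair. Relative to Tnf in the same library, Il12b was higher with DGAT1i in every library. The read ratio of Il12b to Tnf was 0.150, 0.117 and 0.132 without DGAT1i and 0.297, 0.255 and 0.246 with it, a log2 difference of 1.00. The ratio of Il12b to Il6 was 6.39, 5.04 and 5.32 without and 20.3, 10.95 and 16.2 with DGAT1i, a log2 difference of 1.47. For both ratios the groups did not overlap, and the two-sided exact permutation test gave p = 0.1, the smallest that 3 against 3 libraries can give (0.167 adjusted over the 5 ratios compared). The ratios were chosen after the values had been seen, and Il12b and Tnf are each used in 2 of the 5. Both Il12b ratios carry the decreases of Tnf and Il6 given above, so they are no separate evidence about Il12b.

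**Figure D2:**
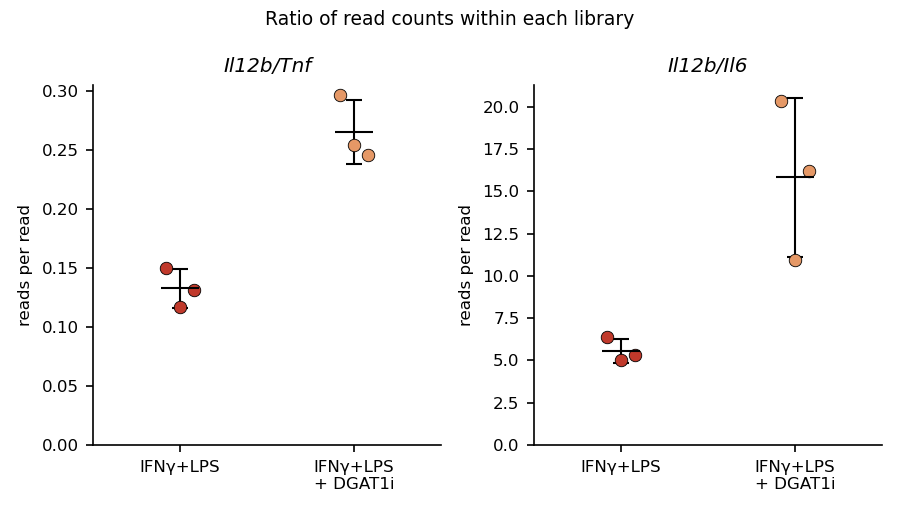
Reads of Il12b per read of Tnf (left) and per read of Il6 (right) in each stimulated library, on linear axes from 0, with group mean and SD (n = 3). The IFNγ + LPS libraries lie between 0.117 and 0.150 for Il12b to Tnf and those with DGAT1i between 0.246 and 0.297.

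Of the IL-27 chains, Il27 was called lower and Ebi3 was not called. Il27 was at 60.2, 63.1 and 63.4 CPM with DGAT1i and fell by 0.30 on the log2 scale (SE 0.08, adjusted p = 0.00349), all 3 libraries being below those without. Ebi3 was at 42.7, 47.9 and 46.9 CPM and overlapped the group without DGAT1i (log2 fold change -0.10, SE 0.09, 95% interval -0.28 to 0.08, adjusted p = 0.469). The ratio of Il27 to Ebi3 was 1.57 ± 0.162 without and 1.36 ± 0.0460 with DGAT1i (SD, n = 3, exact permutation p = 0.2). With 3 against 3 libraries this test cannot go below 0.1, so it does not settle whether the chains responded differently. In the bases Il27 shares with Apobr reads cannot be told apart, and Apobr was at 111 ± 2.50 CPM with DGAT1i against 115 ± 4.13 without.

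Il15 was at 118, 119 and 113 CPM with DGAT1i and fell by 0.26 on the log2 scale (SE 0.07, adjusted p = 0.00172). All 3 libraries lay below those without DGAT1i, whose lowest was 134 CPM. Il15ra averaged 191 ± 9.43 CPM with and 209 ± 13.8 CPM without DGAT1i (log2 fold change -0.13, adjusted p = 0.104), and the ratio of Il15ra to Il15 gave an exact permutation p of 0.3. Il10 had 12, 17 and 15 reads with DGAT1i, or 2.47, 3.54 and 3.496 CPM, overlapping the libraries without it (log2 fold change 0.01, 95% interval -0.63 to 0.65, adjusted p = 0.988).

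**Figure D3:**
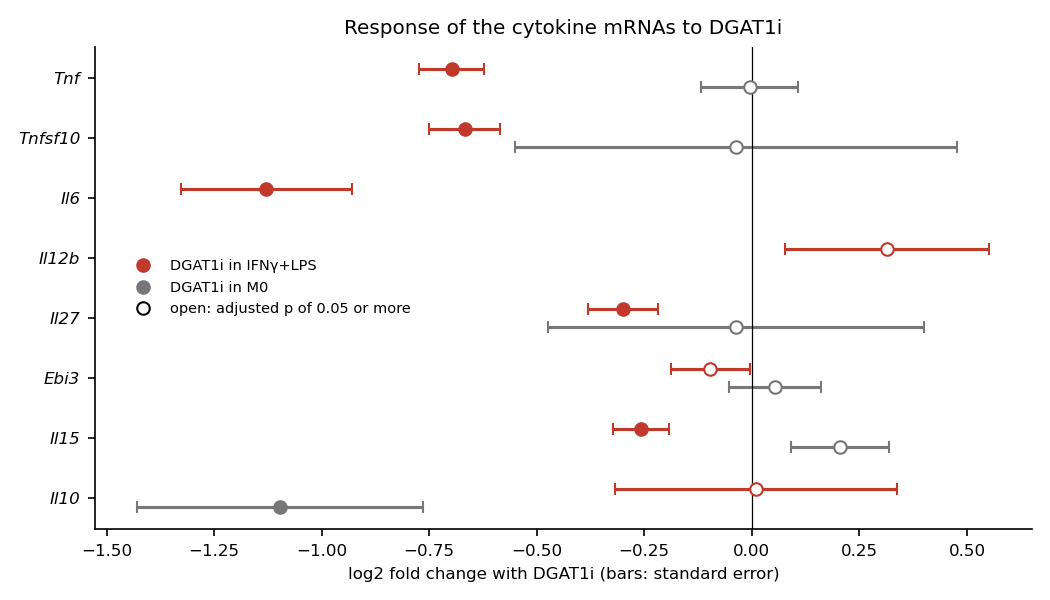
log2 fold change with DGAT1i of each cytokine mRNA in IFNγ + LPS (red) and in M0 (grey), with the standard error from edgeR; filled points have an adjusted p under 0.05. Il6, Tnf, Tnfsf10, Il27 and Il15 are filled in IFNγ + LPS and Il10 alone in M0; Il6 and Il12b have no point in M0 because they had 0 reads.

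In resting cells Il10 was the only cytokine mRNA called with DGAT1i. It had 9, 6 and 16 reads in M0 with DGAT1i (1.19, 0.850 and 2.11 CPM) against 21, 24 and 20 in M0. It fell by 1.10 on the log2 scale (SE 0.33, adjusted p = 0.0103), and was 1 of the 6 cytokines with reads there, where 13.4% of all genes tested were called lower, 11.0% higher and 24.4% in either direction. All 3 libraries were below M0, but the call rested on few reads. It was lost with DESeq2 (adjusted p = 0.0587), without replicate 1 of M0 with DGAT1i (0.0526) and without its replicate 2 (0.0879), all at log2 fold changes of -0.86 or below.

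Tnf was at 35.4, 39.7 and 36.6 CPM in M0 with DGAT1i, inside the range of M0 (log2 fold change 0.00, 95% interval -0.23 to 0.22, adjusted p = 0.988). Ebi3 was at 19.9, 20.97 and 20.8 CPM (0.05, adjusted p = 0.778) and Il15 at 16.6, 17.6 and 14.9 CPM (0.21, adjusted p = 0.197). Il27 and Tnfsf10 stayed below 1 CPM in all 3 libraries, and Il6, Il12a, Il12b and Csf3 had 0 reads. For these low genes a change was not detectable at this depth.

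The inhibitor responses in stimulated and resting cells were compared directly. For Tnf the response in IFNγ + LPS was lower than that in M0 by a log2 difference of -0.69 (SE 0.14, adjusted p = 0.00103), and for Il15 by -0.46 (SE 0.13, adjusted p = 0.00789). These were the 2 of 6 cytokines called, where 9.80% of all genes tested were called lower, 8.66% higher and 18.5% in either direction. For Il10 the difference was 1.11 (SE 0.47, adjusted p = 0.0940), and for Il27, Ebi3 and Tnfsf10 adjusted p-values were 0.762, 0.514 and 0.468. Il6 and Il12b had 0 reads in both resting groups, which leaves this difference without an estimate. This comparison uses all 12 libraries and so shares them with the comparisons above.

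Measured against M0 with DGAT1i, all 8 tested cytokines were higher in IFNγ + LPS with DGAT1i, where 35.3% of genes tested were called higher and 70.6% in either direction. As before, Il6, Il12b, Il27 and Tnfsf10 passed the filter through the stimulated libraries only, so this count is a description. Il6 was at least 50.4-fold and Il12b at least 770-fold higher against the floor. Il10 was among them with a log2 fold change of 1.16 (SE 0.36, adjusted p = 0.00364), starting from its lower level in M0 with DGAT1i. That call was lost with library size alone as scaling (0.75, adjusted p = 0.0563) and with DESeq2 on the 6 libraries compared (1.18, adjusted p = 0.0589). In level per kb the order with DGAT1i was again led by Tnf at 235 ± 27.0 CPM (SD, n = 3). Il27 at 61.0 ± 1.72, Il12b at 52.5 ± 11.6 and Il15 at 51.5 ± 1.34 followed, and in that order neighbouring levels overlapped.

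The genes around the cytokines were described from lists. Of 13 tested receptor genes, 2 rose and 6 fell with DGAT1i in IFNγ + LPS, with a median log2 fold change of -0.13, where 13.5% of all genes tested rose and 16.3% fell around a median of -0.01. Both IL-10 receptor chains were among the decreases. Il10ra was at 414, 396 and 390 CPM in IFNγ + LPS and 260, 285 and 286 CPM after adding DGAT1i (-0.53, SE 0.05, adjusted p = 1.14e-11), and Il10rb fell from 157 ± 6.03 to 119 ± 0.145 CPM (-0.40, SE 0.06, adjusted p = 2.13e-07). Il2rg, the common chain through which IL-15 signals, fell by 0.49 on the log2 scale (SE 0.06), from 267, 279 and 255 to 178, 194 and 198 CPM. Il2rb, the other signalling chain for IL-15, had 1 read over each stimulated group and 0 in the resting groups, and Tnfrsf11b, a decoy that binds TRAIL, had 0 in all libraries. Csf3r, the G-CSF receptor, fell by 0.42 (SE 0.06). In M0 the same inhibitor gave 3 of the 13 higher and 2 lower, where 11.0% of all genes were called higher and 13.4% lower, and there Il10rb and Csf3r rose by 0.19 and 0.27.

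Of the TNF receptors, Tnfrsf1b rose by 0.15 on the log2 scale in IFNγ + LPS (SE 0.05, adjusted p = 0.0256) and by 0.27 in M0 (SE 0.06, adjusted p = 0.000226). Tnfrsf1a was not called in IFNγ + LPS (-0.09, adjusted p = 0.269). The read ratio of Tnfrsf1b to Tnf was 2.43, 2.70 and 2.69 in IFNγ + LPS and 3.91, 5.35 and 4.97 with DGAT1i, without overlap (exact permutation p = 0.1, the smallest possible). That ratio carries the decrease of Tnf. Of the chains that bind the other members, Il6ra fell by 0.26 (adjusted p = 0.0109) and the shared chain Il6st rose by 0.27 (adjusted p = 0.00089). Il12rb1 averaged 131 ± 5.08 CPM in IFNγ + LPS and 134 ± 8.57 CPM after adding DGAT1i (adjusted p = 0.767), Il12rb2 fell from 10.7 ± 0.377 to 6.19 ± 2.47 CPM (adjusted p = 0.00747), and Il27ra (adjusted p = 0.902) and the TRAIL receptor Tnfrsf10b (0.950) were not called.

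**Figure D4:**
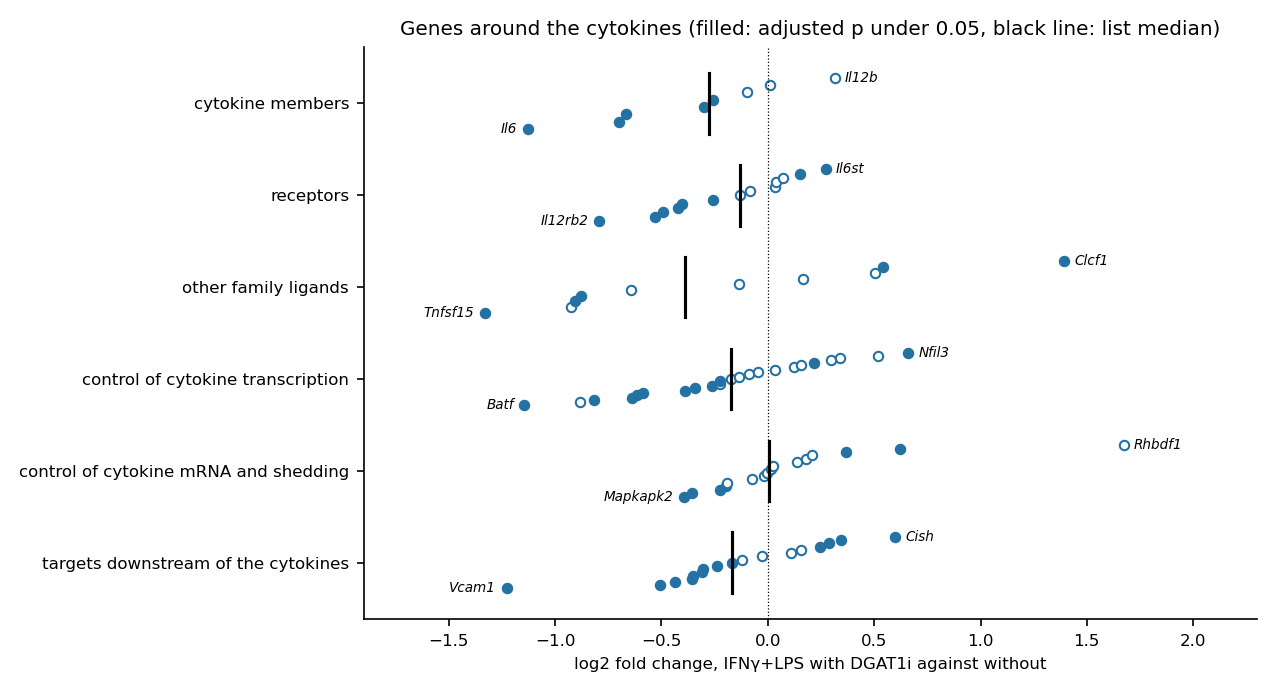
log2 fold change of each tested gene with DGAT1i in IFNγ + LPS for the cytokines and 5 lists of related genes; filled points have an adjusted p under 0.05, black lines are list medians and the outermost gene of each list is named. List medians lie between -0.39 (other family ligands) and 0.01 (mRNA control and shedding), against -0.28 for the cytokines.

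Of 32 further ligands of these families, 12 had 0 reads in every library, among them Csf2 and Tnfsf11, and 10 were tested. With DGAT1i in IFNγ + LPS 2 of the 10 rose and 3 fell (median -0.39), against 13.5% and 16.3% of all genes (median -0.01). Tnfsf15, a TNF family ligand, was at 18.5, 17.3 and 13.1 CPM in IFNγ + LPS and 6.78, 7.08 and 5.36 CPM after adding DGAT1i (-1.33, SE 0.21, adjusted p = 1.01e-06). Csf1, the growth factor that was also in the medium, fell by 0.91 (SE 0.12). The IL-6 family ligands Clcf1 and Osm rose, by 1.39 (SE 0.27) and 0.54 (SE 0.17), and so went the other way from Il6. In M0 with DGAT1i the same pair were the 2 of 10 called higher, beside 1 lower, Tnfsf13b, against 11.0% and 13.4% of all genes. Osm rose by 0.59 there (SE 0.20). Clcf1 went from 0.139 CPM (3 reads over the M0 group) to 1.09 ± 0.523 CPM (24 reads, SD, n = 3), a log2 fold change of 2.79 (SE 0.68).

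Of 23 genes that control cytokine transcription, all tested, 2 rose and 9 fell with DGAT1i in IFNγ + LPS (median -0.17), against 13.5% and 16.3% of all genes (median -0.01). The NF-κB subunit genes Nfkb1 and Nfkb2 fell by 0.61 (SE 0.06) and 0.59 (SE 0.05), Nfkb1 from 291, 288 and 269 to 194, 183 and 177 CPM. Maf, an activator of Il10, fell by 0.64 (SE 0.06) and Stat3, the factor downstream of IL-6 and IL-10, by 0.39 (SE 0.05). In M0, 3 rose and 5 fell, against 11.0% and 13.4% of all genes, with Irf1 (-0.47, SE 0.08) and Nfkb1 (-0.23, SE 0.06) lower and Bcl6 (0.31) and Atf3 (0.24) higher.

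The control of cytokine mRNA is described with the sequences it reads. AU-rich elements in 3′ UTRs, built on the pentamer ATTTA, mark mRNAs for decay by proteins such as tristetraprolin. In the longest annotated 3′ UTR (GENCODE M21), Tnf had 8 pentamers and Il27, in only 285 bases, had 5; 21.6% of 21020 genes had 5 or more, at a median 3′ UTR of 961 bases. The nonamer TTATTTATT was in 5 copies in Tnf, 2 in Il27 and 1 in Il12a, and in at least one copy in 7.66% of all genes. It was absent from Il6, Il10, Il12b, Il15, Ebi3, Csf3 and Tnfsf10, although Il6 and Tnfsf10 had 10 and 8 pentamers in longer UTRs of 1668 and 3998 bases. The densest 30 bases of Tnf (bases 437 to 466 of the UTR) and of Il27 (178 to 207) are given 5′ to 3′ with ATTTA in capitals.
Tnf: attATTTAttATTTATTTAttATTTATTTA
Il27: agatATTTAtttcttggatATTTATTTAtt
With DGAT1i in IFNγ + LPS, Tnf and Il27 fell, and of the 6 tested members without the nonamer Il6, Il15 and Tnfsf10 fell, while Il10 and Il12b, with 6 pentamers each, and Ebi3 were not called.

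Of 16 tested genes for cytokine mRNA decay and shedding, 2 rose and 4 fell with DGAT1i in IFNγ + LPS, and likewise 2 and 4 in M0, where over all genes tested 13.5% rose and 16.3% fell in IFNγ + LPS and 11.0% rose and 13.4% fell in M0. The share that rose was thus near that of all genes. Zfp36, which encodes tristetraprolin, was not called in IFNγ + LPS (202 ± 7.85 against 234 ± 38.5 CPM with DGAT1i, adjusted p = 0.391). Its relative Zfp36l2 rose in both states, by 0.37 (SE 0.06) and 0.32 (SE 0.06), and Mapkapk2, a kinase that restrains tristetraprolin, fell in both, by 0.40 (SE 0.06) and 0.32 (SE 0.06). Zc3h12a, the RNase regnase-1, fell by 0.36 (SE 0.08) in IFNγ + LPS. Adam17, the protease that releases TNF from the cell surface, fell from 296 ± 8.96 to 258 ± 14.5 CPM in IFNγ + LPS (-0.20, SE 0.05, adjusted p = 0.00398) and by 0.25 (SE 0.05) in M0. Rhbdf2, needed for its maturation, fell by 0.22 (SE 0.05) in IFNγ + LPS.

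Of 17 genes listed as targets downstream of the cytokines, 16 rose and 1, Bcl2l1, fell in IFNγ + LPS against M0. Over all genes tested 37.1% rose and 36.2% fell there. Socs1, Socs3 and Cish averaged under 1 CPM in both resting groups and passed the filter through the stimulated libraries, so this count is a description. With DGAT1i, 4 rose and 9 fell in IFNγ + LPS (median -0.17), and 4 rose and 2 fell in M0. Over all genes 13.5% rose and 16.3% fell with DGAT1i in IFNγ + LPS, and 11.0% and 13.4% in M0. The share that fell with DGAT1i in M0 was thus near that of all genes. The TNF-responsive genes Traf1 (-0.51, SE 0.06), Icam1 (-0.43, SE 0.05) and Tnfaip3 (-0.35, SE 0.05) were lower in IFNγ + LPS, and Mcl1 was higher (0.35, SE 0.05). In M0, Tnfaip3 rose by 0.51 (SE 0.08) and Tnfaip2 by 0.92 (SE 0.06), whereas Icam1 fell by 0.42 (SE 0.08). Socs3, a target of IL-6 and IL-10 signalling, averaged 436 ± 6.85 CPM in IFNγ + LPS and 471 ± 30.3 CPM after adding DGAT1i (adjusted p = 0.154), and Socs1 was not called either (adjusted p = 0.743).

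The genes whose centred log2 CPM came nearest to each cytokine over the 12 libraries, of 11150 candidates, were named by root mean square difference. Il2rg (0.169) was nearest to Tnf, Tbk1 (0.0677) and Traf3 (0.0741) were nearest to Ebi3, and Birc3 (0.120) and Jak2 (0.127) to Il15. Cd40 was nearest to both Il27 (0.214) and Tnfsf10 (0.264), followed by Slc7a2 (0.238) and Batf2 (0.279). Ccrl2 (0.204) and Klrk1 (0.284) were nearest to Il6. Il12b (AA467197, 0.292, and Ifi206, 0.310) and Il10 (Mtfr2, 0.296, and Slfn9, 0.299) had no gene within 0.29. The 12 libraries share their groups and scaling, so these distances are a description.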

How the data were processed

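RNA was sequenced from the 12 libraries, and the authors deposited raw read counts per gene, without normalization. Per the labels, GRCm38 and DESeq2 were named in the submitters' processing notes; aligner, counting tool, strand setting and annotation release: not given in the sources used here. The labels name a NEBNext low-input kit and the study's methods a TruSeq stranded kit. Groups were taken from the deposited titles and source names. GENCODE M21 held 39106 of the 47937 identifiers in the same version and 47224 in any; 25746 genes had 0 reads in all libraries. No member had a near-identical copy (BLAST 2.17.0, 95% identity over 20% of the longest transcript).

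Tests used edgeR 4.0.16 (R 4.3.3): filterByExpr (11760 genes, Il12a and Csf3 not passing), TMM, 1 mean per group over all 12 libraries, glmQLFit (robust), quasi-likelihood tests of 5 contrasts with Benjamini-Hochberg adjustment over all genes tested, and a threshold of 0.05. SE was taken from the fold change and its F statistic. For a group at 0 a floor of 3 reads (over the group) was set, and intervals cover counting error only. Replicates differed by 1.98 to 4.23 times counting noise (chi-square per gene, 12 pairs), so none was a repeat deposit of another. The common biological coefficient of variation was 0.0507. Members and lists were chosen with earlier results of these data known. Every member is named, with list genes that pair with, bind or cleave a member, up to 4 list genes per DGAT1i contrast with the smallest p past the threshold, a few further list genes chosen after their values were seen, and 2 genes of like pattern per member (prior count 2), of which 1 is not reported here. Methods were tested on simulated data. Alternatives were DESeq2 1.42.0, other scalings and filters, fits of only the libraries compared, a threshold of 0.01, leaving out each library, and a block on the replicate number. Plots were made with matplotlib 3.10.9 (Python 3.11.15).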

Additional observations from a re-analysis of the deposited data

Results flagged for a closer look

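For Tnf, the DGAT1i response in IFNγ + LPS was below that in M0 by a log2 difference of -0.69 (SE 0.14, adjusted p = 0.00103, from the quasi-likelihood test of edgeR after Benjamini-Hochberg adjustment): the 3 stimulated libraries with DGAT1i were below those without, and the resting ones were within the M0 range. For Il15 the difference was -0.46 (SE 0.13, adjusted p = 0.00789), with a log2 fold change of -0.26 in IFNγ + LPS and 0.21 in M0, the latter not past the threshold. Both differences are tests between the responses in the 2 states. Over the alternatives, adjusted p-values ranged from 6.5e-11 to 0.00377 for Tnf and from 0.0036 to 0.0387 for Il15.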

How the results depend on the processing

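Of 742 values of the members' fold changes under the alternatives, 733 kept their side of the threshold, 7 lost their call and 2 gained one. These values leave out Il12a and Csf3, which did not pass the filter. With no filter on low counts, 8 of 10 members were called higher in IFNγ + LPS against M0, in place of 7 of 8. Il10 was not the one added, so Il12a or Csf3 gained a call on few reads. The sign changed in 19, all of fold changes that were not called in either fit, and no called value reversed. The count of members called in M0 with DGAT1i, 1 (Il10), became 0 with DESeq2 on 12 libraries or on the 6 compared (adjusted p = 0.109) and at a threshold of 0.01, and ranged from 0 to 1 when each library was left out, being 0 without replicate 1 or 2 of M0 with DGAT1i. Without replicate 3 of that group, the difference between the DGAT1i responses of Il10 was called (1.54, adjusted p = 0.0329), and that count ranged from 2 to 3. With the replicate number as a block, 6 members were called with DGAT1i in IFNγ + LPS in place of 5, Il12b being added (log2 fold change 0.30, adjusted p = 0.0012; range over the alternatives 0.0012 to 0.665). Same-numbered libraries correlated at -0.0217 to 0.0687 in their deviations, and 8 of 12 correlated best with their own number. With DGAT1i in IFNγ + LPS all 3 did so, at 0.0687, 0.0394 and 0.0356. No label says that equal numbers mark a pair, so the main fit left them out, and a pairing was not settled. With library size alone as scaling, levels moved with the TMM factors (means of 1.19 in M0 and 0.860 in IFNγ + LPS, and of 1.14 and 0.855 after adding DGAT1i), and Il10 in IFNγ + LPS against M0 went to -0.41, not called. Depth limits Il10, Il12a and Csf3, with at most 24 reads in a library.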
